A study of Mus musculus with 48 samples.

Results

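The kidneys described here came from the 12 mice given vancomycin at the 2 lower intraperitoneal doses, 50 and 200 mg/kg, and from the 6 mice given saline by the same route. They were chosen by their titles, and make up 18 of the 48 arrays of the study. Vancomycin is a glycopeptide antibiotic that is cleared by the kidney, and the study set doses and routes side by side to look at its toxicity there. All animals were female BALB/c mice with no genetic modification named, injected once a day for 7 days and killed on day 8, and each array holds the kidney RNA of 1 mouse. The groups used are intraperitoneal (ip) vancomycin at 50 and at 200 mg/kg, pooled and called vancomycin kidneys below, against ip saline (0.9% saline), with 6 mice in each of these 3 groups. Beside them stand ip 400 mg/kg (6 mice) and the intravenous (iv) groups at 50 mg/kg, 200 mg/kg and saline (6 mice each). A further iv group at 400 mg/kg (6 mice) enters only where all 48 arrays or all iv arrays are used. Age is not given in the sources used here, and neither is the clock time of killing. The mice lived under a 12 h light/dark cycle.

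Values are log2 of GCRMA intensities, a background-corrected and normalized brightness for each probe set of an Affymetrix array, and a difference of 1 is a 2-fold change. The array medians of the 18 kidneys lay between 3.47 and 3.58, and a level under 3.47, the median of the whole table, was not told apart from background. In the deposited table values and probe set names are out of step, so gene names rest on 3 stretches of rows in which a constant shift restored them, and every named result depends on that reconstruction. The stretches hold 24.4% of the 45101 probe sets and name 7859 genes. With this naming, levels of probe sets for the same gene correlated at 0.516 over 2927 pairs in the 18 arrays, against 0.141 over 3132 pairs with the names as listed. The kidney markers Umod and Slc34a1 had median levels of 14.17 and 13.42, the female transcript Xist 10.88, the Y-linked Kdm5d 2.40 and the pancreatic Ins2 1.95. The whole kidney was measured, so fewer cells of a type and less RNA per cell cannot be told apart.

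Nearly all mammalian cells, those of kidney tubules included, hold a circadian clock, a feedback loop of transcription with a period of about a day. A heterodimer of Arntl (also called BMAL1) with Clock or its relative Npas2 binds E-box sequences and drives the Per and Cry genes, whose proteins then inhibit it. Nr1d1 and Nr1d2 (REV-ERB alpha and beta) are driven by the same heterodimer and repress Arntl and Npas2 through ROR response elements, and the transcription factors Dbp, Tef and Hlf carry the rhythm to output genes through D-box sequences, where Nfil3 opposes them. In a cycling tissue Arntl and Npas2 are therefore high when Dbp, Per3 and Ciart are low.

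The promoters below show the 3 kinds of element next to genes whose levels differed between the groups, since several genes described below belong to this loop. Only windows that hold a match are shown. Each is 300 bases of RefSeq sequence on the GRCm38.p6 build, 250 before and 50 after an annotated start, printed 5′ to 3′ on the gene's strand. Capitals mark the matches of the E-box CACGTG, the D-box TTATGTAA or the ROR element core TAGGTCA, searched on both strands, and none of these 3 motifs contains another. Per3 is on the minus strand at chr4:151044616-151044915, Ciart on the minus strand at chr3:95882179-95882478, Tef on the plus strand at chr15:81802423-81802722 (the first of its 2 starts) and Arntl on the plus strand at chr7:113207261-113207560 (the second of its 2 starts).
Per3: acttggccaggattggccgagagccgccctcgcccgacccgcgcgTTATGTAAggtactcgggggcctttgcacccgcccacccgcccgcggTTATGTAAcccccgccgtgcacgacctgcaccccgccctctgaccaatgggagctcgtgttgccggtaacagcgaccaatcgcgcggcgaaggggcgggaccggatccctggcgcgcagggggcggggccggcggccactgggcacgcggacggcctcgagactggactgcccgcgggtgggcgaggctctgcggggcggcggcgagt
Ciart: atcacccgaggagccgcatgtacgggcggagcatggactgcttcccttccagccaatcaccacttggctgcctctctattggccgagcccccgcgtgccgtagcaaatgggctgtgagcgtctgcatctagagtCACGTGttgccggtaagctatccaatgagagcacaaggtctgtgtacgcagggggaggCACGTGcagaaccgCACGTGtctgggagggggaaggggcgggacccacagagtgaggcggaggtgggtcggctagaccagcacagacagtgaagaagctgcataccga
Tef: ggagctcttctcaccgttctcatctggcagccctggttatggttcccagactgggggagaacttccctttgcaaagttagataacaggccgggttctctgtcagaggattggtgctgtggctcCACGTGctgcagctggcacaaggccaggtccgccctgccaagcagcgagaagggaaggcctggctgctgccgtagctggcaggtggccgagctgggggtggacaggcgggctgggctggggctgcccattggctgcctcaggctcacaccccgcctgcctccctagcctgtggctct
Arntl: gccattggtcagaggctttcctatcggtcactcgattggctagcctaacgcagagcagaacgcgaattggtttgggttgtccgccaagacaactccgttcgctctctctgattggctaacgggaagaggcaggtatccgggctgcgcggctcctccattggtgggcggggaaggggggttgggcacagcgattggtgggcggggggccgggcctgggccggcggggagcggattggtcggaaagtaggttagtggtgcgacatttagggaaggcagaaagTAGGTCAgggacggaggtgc

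Per3 holds 2 D-boxes, Ciart 3 E-boxes, Tef 1 E-box and Arntl 1 ROR element core in these windows. Of 32851 RefSeq mouse promoters of this length, 7.15% hold the E-box, 0.938% the D-box and 2.61% the ROR element core. Among the 12 of the 13 genes described next that have a promoter entry (18 promoters), 3 genes (Tef, Bnip3 and Ciart) hold an E-box, 1 a D-box and 1 a ROR element core. The shares are per promoter and the counts per gene, and a gene with several starts has several windows, so the 2 are not like measures. Windows of Dbp, Nr1d2 and Npas2, and that of the first Arntl start, hold none of these letter strings. A ROR element core also stands in the window of Nfil3, which did not pass the threshold. A match is a description of the sequence.

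Few named genes differed between the lower ip doses and saline, and the largest of the differences past the threshold were in clock genes. Of 5394 genes tested, 13 passed an adjusted p of 0.05 (0.241%), with 8 higher (0.148%) and 5 lower (0.0927%) in the vancomycin kidneys (limma with Benjamini-Hochberg adjustment). The circadian list held 7 of the 13: Dbp, Ciart, Per3, Tef and Nr1d2 rose, and Arntl and Npas2 fell. Without the clock time of killing of each group, a difference in that time between the groups and one in treatment cannot be told apart for these genes. The count rests on the saline arrays: it was 8 without saline mouse 61, 21 without mouse 62, 4 without mouse 63 and 2 without mouse 64, and 9 to 18 without any other single array. Dbp and Per3 passed the threshold whichever of the 18 arrays was left out. The other 11 genes did not pass without certain single arrays, with adjusted p-values of up to 0.11 (limma). For Arntl and Avpr1a this was saline mouse 64, and for Npas2, Tef and Spata6 saline mouse 63 or 64. For Bnip3 it was saline mouse 61, 63 or 64, for Rtkn saline mouse 63, 64 or 66, for Ciart saline mouse 61, 63 or 64 or vancomycin mouse 86, and for Nr1d2 the same 4 mice or vancomycin mouse 72. For Ndrg1 it was any saline mouse but 62 or vancomycin mouse 71, 86 or 87, and for Ethe1 any saline mouse but 62 or vancomycin mouse 71, 72, 85, 86 or 88. Residuals of arrays were shared between groups along the mouse numbers: within the first, middle and last pair of each group they correlated at a mean of 0.248 over 36 pairs of arrays, against -0.124 over 72 pairs from unlike positions. Residuals were taken from group means, which ties the second value to the first, so it is no separate reference. No label calls these pairs a batch. Within the 3 positions the difference was 1.70, 2.69 and 1.10 for Dbp and 0.99, 1.70 and 1.45 for Per3. With the position as a block, a setting added after the data were seen, 35 genes passed, the 13 among them.

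**Figure D1:**
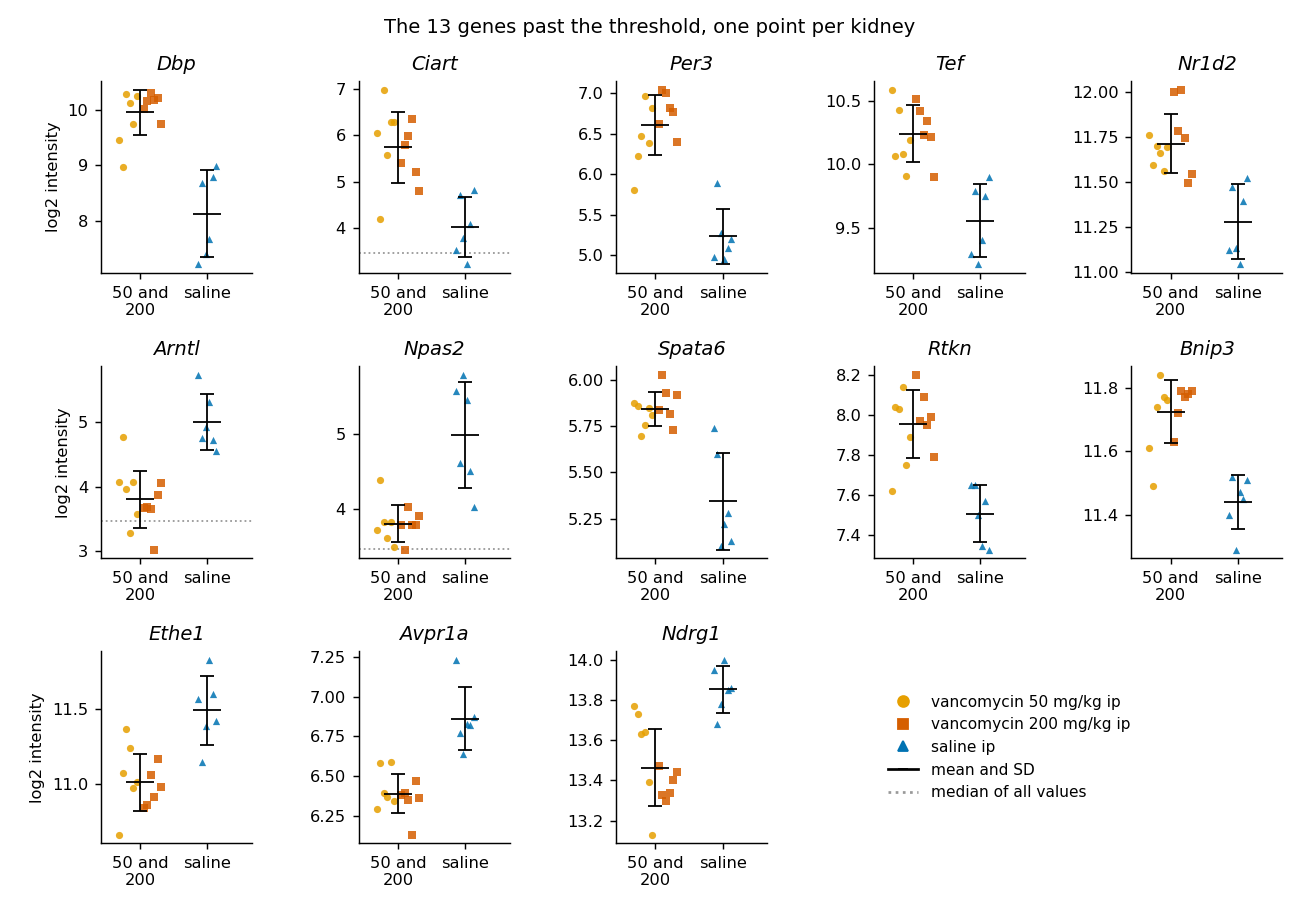
Log2 intensity (vertical axis, own range per panel) of the 13 genes past the threshold, with vancomycin 50 mg/kg (circles) and 200 mg/kg ip (squares) on the left and saline ip (triangles) on the right of each panel, 1 point per kidney, bars showing mean and SD and the dotted line the median of all values. The 12 vancomycin kidneys lie wholly above the 6 saline kidneys for Tef and wholly below them for Avpr1a, and the other 11 genes overlap in 1 to 3 vancomycin kidneys.

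Of the activators of the loop, Arntl and Npas2 fell in the vancomycin kidneys and Clock did not pass the threshold. Arntl had a lowest, median and highest level of 3.03, 3.78 and 4.76 in vancomycin kidneys, against 4.55, 4.83 and 5.72 in saline kidneys. Of the 12 vancomycin kidneys 11 lay below every saline kidney, and the level fell by 1.19 on the log2 scale (SE 0.20, 2.28-fold, adjusted p = 0.012, limma). Npas2 ran at 3.46, 3.79 and 4.39 in vancomycin kidneys and at 4.02, 5.03 and 5.78 in saline kidneys, with 10 of 12 vancomycin kidneys below every saline kidney, and fell by 1.19 (SE 0.21, 2.27-fold, adjusted p = 0.014). Both genes sat close to the background level in vancomycin kidneys. Clock, their partner in the loop, averaged 8.18 ± 0.25 in vancomycin kidneys and 8.44 ± 0.16 in saline kidneys (SD, n = 12 and 6), a difference of -0.26 that did not pass the threshold (adjusted p = 0.59, limma).

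Among the repressors and inhibitors, Per3, Ciart and Nr1d2 rose. Per3, a period protein, had a lowest, median and highest level of 5.80, 6.69 and 7.04 in vancomycin kidneys and of 4.96, 5.14 and 5.89 in saline kidneys. It rose by 1.38 (SE 0.16, 2.60-fold, adjusted p = 0.00021, limma), with 11 of 12 vancomycin kidneys above every saline kidney. Saline mouse 62 held the top saline value of 5.89, and the next highest saline kidney was at 5.27. Ciart, which inhibits the Arntl and Clock heterodimer, stood at 4.19, 5.89 and 6.98 in vancomycin kidneys and at 3.22, 3.95 and 4.82 in saline kidneys. Its rise was 1.71 (SE 0.33, 3.28-fold, adjusted p = 0.023), and 10 of 12 vancomycin kidneys exceeded every saline kidney. Nr1d2 was at 11.49, 11.70 and 12.01 in vancomycin kidneys and at 11.04, 11.26 and 11.52 in saline kidneys, a rise of 0.43 (SE 0.08, 1.35-fold, adjusted p = 0.027).

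Of the 3 D-box activators, Dbp and Tef rose and Hlf did not pass the threshold. Dbp, the D-box binding protein, had a lowest, median and highest level of 8.97, 10.13 and 10.31 in vancomycin kidneys, against 7.21, 8.17 and 8.99 in saline kidneys. This was the largest fold change among the 5394 genes, 1.83 (SE 0.25, 3.55-fold, adjusted p = 0.0011, limma), and 11 of 12 vancomycin kidneys exceeded every saline kidney. The saline kidneys differed among themselves, at 7.21, 7.40 and 7.66 in mice 61, 63 and 64 and at 8.68, 8.79 and 8.99 in mice 62, 65 and 66. Mice 61, 63 and 64 also had the 3 highest saline levels of Npas2 (5.56, 5.78 and 5.44) and of Arntl (5.72, 4.92 and 5.30). Tef, a relative of Dbp, was at 9.90, 10.22 and 10.59 in vancomycin kidneys and at 9.21, 9.58 and 9.90 in saline kidneys, without overlap, although the nearest kidneys of both groups round to 9.90. It rose by 0.68 (SE 0.12, 1.61-fold, adjusted p = 0.014). Of all 5394 genes, 4 separated the 2 groups in this way (0.0742%): Tef and Avpr1a, and, chosen after their values were seen, Prss8 (0.20, adjusted p = 0.096) and Pdcd4 (0.23, adjusted p = 0.21).

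The other 13 tested genes of the circadian list did not pass the threshold. Of its 25 genes 20 were tested, with a median log2 fold change of 0.391, against 0.025 over all genes. At an unadjusted p of 0.05, 11 of the 20 were higher and 4 lower, where 4.82% and 2.15% of all genes were. This median and these counts include the circadian genes past the threshold, and the list was chosen with earlier results of these data known. Per2, also a period protein, averaged 6.83 ± 0.50 in vancomycin kidneys and 5.97 ± 0.15 in saline kidneys (0.86, adjusted p = 0.088, and 0.041 with the block), and Cry2, a cryptochrome, 6.87 ± 0.23 and 6.29 ± 0.38 (0.58, adjusted p = 0.092). Nfil3, the repressor at D-boxes, averaged 4.28 ± 0.28 in vancomycin kidneys and 5.17 ± 0.68 in saline kidneys (-0.89, adjusted p = 0.088, and 0.028 with the block). Hlf, the third D-box activator, differed by 0.37 (adjusted p = 0.44), the cell cycle kinase Wee1, whose gene carries E-boxes, by 0.46 (adjusted p = 0.11, and 0.046 with the block), and the deubiquitinase Usp2 by 0.43 (adjusted p = 0.52). Nr1d1, although a close relative of Nr1d2, was at 6.50 ± 0.43 in vancomycin kidneys and 6.14 ± 0.43 in saline kidneys (0.36, adjusted p = 0.78). Bhlhe40 (0.20), Rora (0.25) and Csnk1d (0.28) had adjusted p-values of 0.81 to 0.94. Csnk1e differed by 0.42, and Tsc22d3 by -0.14.

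**Figure D2:**
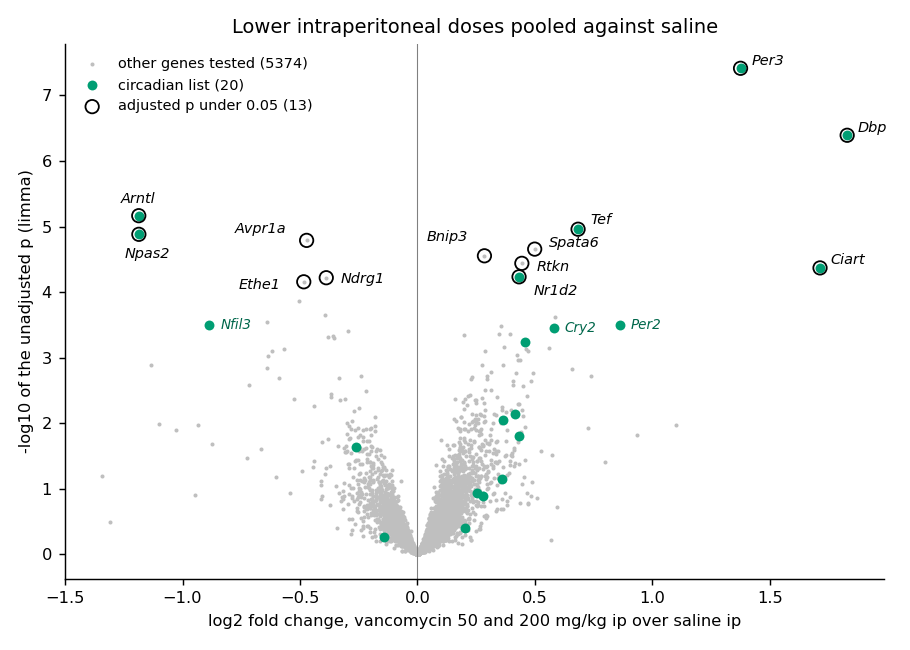
Each point is 1 of the 5394 genes tested, with the log2 fold change of vancomycin 50 and 200 mg/kg ip over saline ip on the horizontal axis and the negative log10 of the unadjusted p on the vertical axis. The 20 genes of the circadian list are green and the 13 past the threshold are ringed, 7 of them green, with Dbp (1.83), Ciart (1.71) and Per3 (1.38) farthest to the right and Arntl and Npas2 (-1.19 each) farthest to the left among the ringed genes.

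The 6 other genes past the threshold changed by 0.50 or less on the log2 scale. Among those higher in vancomycin kidneys, Spata6, a gene known for its part in sperm formation, averaged 5.84 ± 0.09 in vancomycin kidneys and 5.34 ± 0.26 in saline kidneys (0.50, adjusted p = 0.017). Rtkn averaged 7.95 ± 0.17 and 7.51 ± 0.14 in the same groups (0.44, adjusted p = 0.022), and Bnip3, a mitochondrial protein of mitophagy that hypoxia induces, 11.72 ± 0.10 and 11.44 ± 0.09 (0.29, adjusted p = 0.019). Among those lower, Avpr1a, the V1a receptor for vasopressin, had a lowest, median and highest level of 6.13, 6.38 and 6.59 in vancomycin kidneys, against 6.64, 6.82 and 7.23 in saline kidneys. All 12 vancomycin kidneys lay below all 6 saline kidneys, and Avpr1a fell by 0.47 (SE 0.08, adjusted p = 0.015). Ethe1, a mitochondrial enzyme of sulfide oxidation, averaged 11.01 ± 0.19 in vancomycin kidneys and 11.50 ± 0.23 in saline kidneys (-0.48, adjusted p = 0.029). Ndrg1, a stress-responsive protein, averaged 13.46 ± 0.19 and 13.85 ± 0.12 (-0.39, adjusted p = 0.027). Further probe sets above background pointed the same way for Spata6 (0.27), Nr1d2 (0.36), Avpr1a (-0.68) and Ndrg1 (-0.66), while those of Per3 and Npas2 were at background (mean levels of 2.85 and 2.12).

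Each dose was also set against the same 6 saline kidneys, and few genes passed the threshold. At 50 mg/kg 3 genes passed the threshold (0.0556%): Per3 rose by 1.21 (adjusted p = 0.012) and Dbp by 1.68 (adjusted p = 0.026), and Ube2l6, a ubiquitin-conjugating enzyme of the interferon response, fell by 1.05 (adjusted p = 0.039, limma). At 200 mg/kg 12 genes did (0.222%), among them Per3 (1.54, adjusted p = 0.00034), Dbp (1.98, adjusted p = 0.0028), Arntl (-1.33, adjusted p = 0.017), Tef (0.71, adjusted p = 0.035) and Npas2 (-1.20, adjusted p = 0.036). For 12 of the 13 genes of the pooled comparison the difference from saline was larger at 200 mg/kg, and Ciart was the exception (1.56 at 200 mg/kg and 1.86 at 50 mg/kg). Both differences use the same 6 saline kidneys, and the share of all genes with a larger difference at 200 mg/kg was not counted. The 12 of 13 is therefore no test of dose. The numbers of genes past the threshold at each dose moved with single arrays. At 50 mg/kg the count was 9 without mouse 68, 1 without mouse 69, 70 or 71, and 0 without mouse 72 or saline mouse 64. At 200 mg/kg it was 2 without mouse 85, 86 or 87 or saline mouse 64, 4 without mouse 88 or 89 or saline mouse 61 or 63, and 6 without saline mouse 65. Set directly against each other, the 200 and 50 mg/kg kidneys had 0 of 5394 genes past the threshold with limma, and 130 (2.41%) at an unadjusted p of 0.05. Dbp differed by 0.30 between the doses (95% interval -0.30 to 0.89), Per3 by 0.33, Arntl by -0.30 and Ciart by -0.30. The 2 smallest p-values between doses belonged to Dctn6, a dynactin subunit, at 10.25 ± 0.16 at 200 mg/kg and 10.59 ± 0.10 at 50 mg/kg, and to Ube2l6, at 5.56 ± 0.40 at 200 mg/kg and 4.74 ± 0.14 at 50 mg/kg, both with an adjusted p of 0.47. Ube2l6 averaged 5.78 ± 0.44 in saline kidneys, and its call at 50 mg/kg is named after its values were seen.

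None of the other 36 gene lists had a member past the threshold in the pooled comparison, out of 37 lists, 31 of which had 5 or more tested members. The neutrophil and adrenal lists had 0 tested members. Only 0.241% of all genes passed, and at that share lists of this size hold few such genes or none. The lack of them is therefore no result about these lists. The tubular injury list had 16 tested genes and a median of 0.101. At an unadjusted p of 0.05, 3 of its members were higher and 0 lower, where 4.82% and 2.15% of all genes were. Havcr1 (kidney injury molecule 1, the standard marker of a damaged proximal tubule) had a lowest, median and highest level of 9.16, 10.72 and 11.65 in vancomycin kidneys, against 9.02, 10.12 and 11.25 in saline kidneys. The ranges overlap widely, and the difference was 0.47 with a 95% interval of -0.22 to 1.16 (adjusted p = 0.86, limma). Clu, clusterin, averaged 10.50 ± 0.32 in vancomycin kidneys and 10.48 ± 0.21 in saline kidneys, with a 95% interval of -0.24 to 0.27. The 2 smallest p-values of the list were those of Krt8, an epithelial keratin (0.23, adjusted p = 0.2), and of Cldn4, a tight junction protein (0.32, adjusted p = 0.44).

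No gene of the tubule lists passed the threshold, where 0.241% of all genes did. The proximal tubule transporters had 30 tested members with a median of 0.0737, and the 31 genes of proximal tubule metabolism had a median of 0.0396. At an unadjusted p of 0.05, 5 transporters were higher and 0 lower. Of the metabolism genes 4 were higher and 3 lower, against 4.82% and 2.15% of all genes. Slc34a1, the phosphate transporter, averaged 13.43 ± 0.14 in vancomycin kidneys and 13.39 ± 0.14 in saline kidneys, and its difference of 0.03 had a 95% interval of -0.11 to 0.17. The interval for Lrp2 (megalin, an endocytic receptor that takes up filtered proteins and drugs) was -0.11 to 0.30, that for Slc22a6 (the organic anion transporter OAT1) -0.06 to 0.44, and that for Hpd, a tyrosine-degrading enzyme, -0.34 to 0.06. Members of these lists with the smallest p-values were Slco3a1 (0.31, adjusted p = 0.27), Slc17a3 (0.25, adjusted p = 0.44), Ddc (-0.36, adjusted p = 0.098) and Glul (0.20, adjusted p = 0.36). Loop and distal tubule genes (18 tested) had a median of 0.0742, collecting duct genes (14 tested) 0.0286 and oxidative phosphorylation genes (32 tested) 0.0211. A p that misses the threshold does not show equal levels, and these intervals give the sizes left possible by 12 and 6 arrays.

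**Figure D3:**
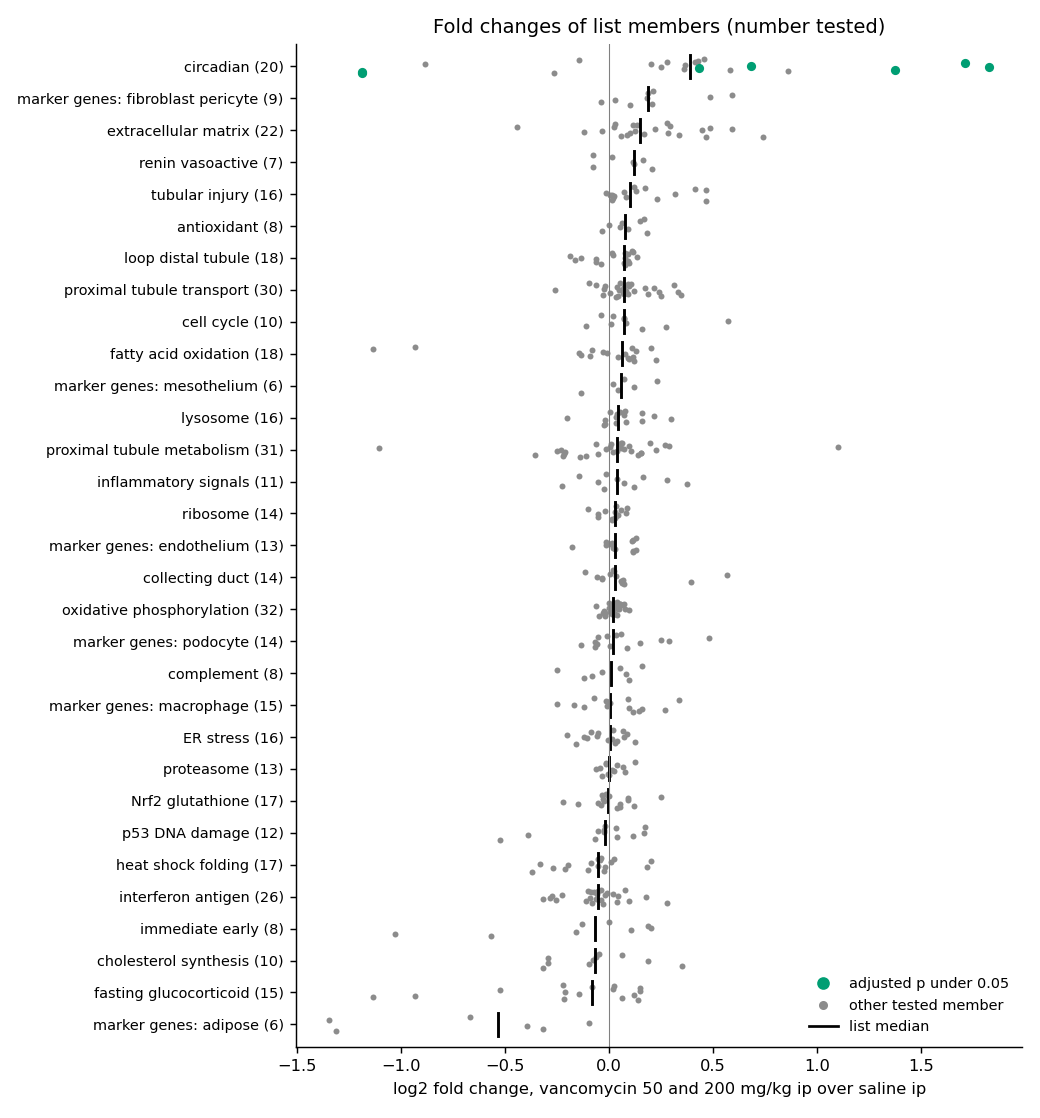
Log2 fold change of vancomycin 50 and 200 mg/kg ip over saline ip (horizontal axis) for every tested member of the 31 lists with 5 or more tested genes, ordered by list median (black bars), with members past the threshold in green. Green points occur in the circadian list alone, at the top with a median of 0.391, and the adipose marker list is at the bottom with -0.531.

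Stress, immune and matrix lists held no gene past the threshold, which 0.241% of all genes passed. The medians were -0.0507 for heat shock and folding genes (17 tested), 0.00615 for ER stress (16), -0.00471 for Nrf2 and glutathione genes (17), -0.0202 for p53 and DNA damage genes (12), 0.046 for the lysosome (16) and -0.0532 for interferon and antigen genes (26). The lowest member of the p53 list was Cdkn1a (p21), at -0.52 with an adjusted p of 0.31. Among 8 tested immediate early genes, Jun differed by -0.57 (adjusted p = 0.12) and Egr1 by -1.03 (adjusted p = 0.47). In the 15 genes of the fasting and glucocorticoid list, Pdk4, a kinase that spares glucose, differed by -1.14 (adjusted p = 0.16) and Angptl4, a lipase inhibitor induced by fasting, by -0.93 (adjusted p = 0.45). At an unadjusted p of 0.05, 4 of these 15 genes and 2 of the 8 immediate early genes were lower, where 2.15% of all genes were. In both lists 0 were higher, where 4.82% of all genes were. The 22 tested matrix genes had a median of 0.152, with Col1a2 at 0.74 (adjusted p = 0.2).

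Over all 5394 genes, 11 differed by more than 2-fold between the group means, and 5 of them were the clock genes Dbp, Ciart, Per3, Arntl and Npas2. The 6 others did not pass the threshold, and are named after their values were seen: Egr1 and Pdk4 above, Cyp24a1 (-1.10, adjusted p = 0.45) and Cyp27b1 (1.10, adjusted p = 0.45), which break down and make active vitamin D, and Adipoq (-1.31, adjusted p = 0.92) and Thrsp (-1.34, adjusted p = 0.77), genes of fat cells and lipid synthesis. Cyp27b1 averaged 5.83 ± 1.10 in vancomycin kidneys and 4.73 ± 0.88 in saline kidneys, and Cyp24a1 8.67 ± 0.85 and 9.78 ± 0.86 in the same groups.

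Among marker lists of other cells, the adipose list was the lowest, with a median of -0.531 over 6 tested genes and 0 past the threshold. Its mean log2 level ran from 5.61 to 7.76 in vancomycin kidneys, with a median of 6.13, and from 5.80 to 9.02 in saline kidneys, with a median of 6.85, and the highest value was that of saline mouse 62. The 9 tested fibroblast and pericyte markers had a median of 0.189, macrophage markers (15) 0.00668, endothelial markers (13) 0.03, podocyte markers (14) 0.0186 and mesothelial markers (6) 0.0591. Mean levels of the macrophage list ran from 5.68 to 6.10 in vancomycin kidneys and from 5.57 to 6.14 in saline kidneys. No neutrophil or adrenal marker and only 1 T or NK marker (Cd8a, -0.06) and 1 B or plasma cell marker (Ighm, 0.00) passed the filter on low values. Of the red cell markers 3 did, with Klf1 at 0.23 and Epb42 at -0.08, and of the muscle markers 2, Myh6 (-0.10) and Des (0.13).

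The intravenous kidneys allow the same contrast by another route, with other saline animals. In a fit of 36 arrays, the effect of the lower doses differed between ip and iv in 22 of 5531 genes (0.398%), 21 of them more positive by ip, and 6 of these 22 were among the 13 genes of the pooled ip comparison. Dbp averaged 9.72 in iv vancomycin kidneys and 9.83 in iv saline kidneys, so its ip effect exceeded its iv effect by 1.94 (SE 0.31, adjusted p = 0.00036, limma). Per3 likewise differed between routes by 1.30 (adjusted p = 0.0076), Rtkn by 0.57 (adjusted p = 0.031) and Bnip3 by 0.43 (adjusted p = 0.038). Ciart moved in opposite directions: by iv it averaged 5.91 in vancomycin kidneys and 7.40 in saline kidneys, so that it fell by 1.49 (adjusted p = 0.0073, where 1.55% of genes passed in the iv contrast), and the difference between routes was 3.20 (SE 0.45, adjusted p = 2.7e-05). Arntl differed by -1.12 (adjusted p = 0.038), but its iv means of 2.93 and 3.00 were both under the background level, so a fall by iv could not have been seen. The same holds for Npas2, with iv means of 3.19 and 3.27 (-1.11, adjusted p = 0.11). Tef (0.67, adjusted p = 0.17) and Nr1d2 (0.27, adjusted p = 0.76) did not pass the test of the difference.

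The genes with the smallest p-values of the route difference were no clock genes. Csrnp1, Nr4a1 and Ptgs2, which are early response genes, and Rasd1, a Ras-related gene induced by glucocorticoids, had ip means that were alike in vancomycin and saline kidneys, such as 5.79 and 5.95 for Nr4a1 and 4.08 and 4.08 for Rasd1. By iv the saline kidneys were higher, with Nr4a1 at 10.12 in iv saline, 5.94 at 50 mg/kg and 6.26 at 200 mg/kg and Rasd1 at 7.64, 5.10 and 5.32 in the same order. The iv effect itself was -4.02 for Nr4a1 and -2.43 for Rasd1. The ip means of Ptgs2 were under the background level, so its ip effect, and with it the difference between routes, was not measurable. The 90th percentile of the arrays was 9.07 to 9.23 by ip and 8.28 to 8.75 by iv, and levels are not compared across routes here.

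**Figure D4:**
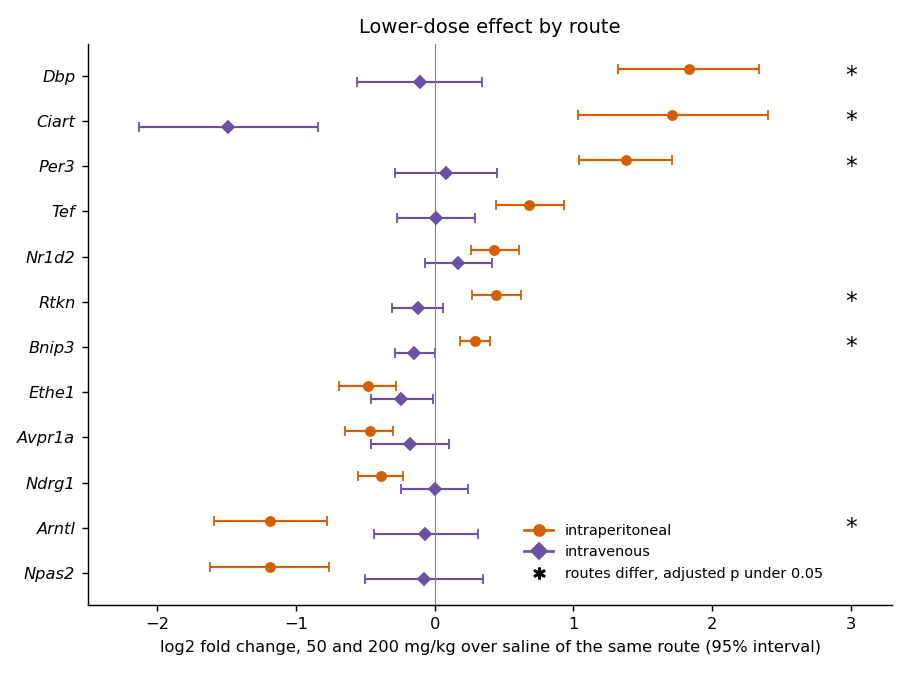
Log2 fold change of vancomycin 50 and 200 mg/kg over saline of the same route (horizontal axis) with its 95% interval, for 12 of the 13 genes past the threshold by ip, with ip circles above iv diamonds and asterisks where the routes differed at an adjusted p under 0.05. The iv intervals include 0 for 9 of the 12 genes, and Ciart is at 1.71 by ip and at -1.49 by iv.

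At 400 mg/kg ip all tested injury genes were higher and most tested tubule genes lower than at the lower ip doses. Against the lower ip doses pooled, 3966 of 5593 genes passed the threshold (70.9%), 2230 higher (39.9%) and 1736 lower, with the same 12 lower-dose kidneys on the other side of the comparison. All 16 injury genes tested in the pooled comparison were higher at 400 mg/kg. In this fit 21 were tested, because its filter on low values also counted the 400 mg/kg arrays. All 21 rose, with a median of 4.31, but genes let in by those arrays alone were bound to be higher there. At 400 mg/kg Havcr1 averaged 13.34 ± 0.11 and Clu 14.04 ± 0.14 (SD, n = 6). Of the proximal tubule transporters 29 of 30 fell (median -2.24) and 1, Slco3a1, rose (1.52, adjusted p = 6.7e-13, limma), and of the proximal tubule metabolism genes 27 of 31 fell and 3 rose. Further along the tubule, 16 of 18 loop and distal genes and 10 of 14 collecting duct genes fell and 1 of each rose, and the water channel Aqp2 did not pass the threshold (0.14, adjusted p = 0.56). Hpd averaged 13.51 ± 0.18 in saline kidneys, 13.37 ± 0.27 at 50 mg/kg, 13.36 ± 0.18 at 200 mg/kg and 5.50 ± 1.55 at 400 mg/kg. Serpina10, a plasma protease inhibitor, was at 3.74 ± 0.75 in saline kidneys, 3.92 ± 0.73 at 50 mg/kg, 4.51 ± 0.72 at 200 mg/kg and 11.64 ± 0.13 at 400 mg/kg. The monocyte receptor Cd14 was at 5.71 ± 0.31, 5.77 ± 0.28, 5.94 ± 0.24 and 11.48 ± 0.65 in the same order.

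**Figure D5:**
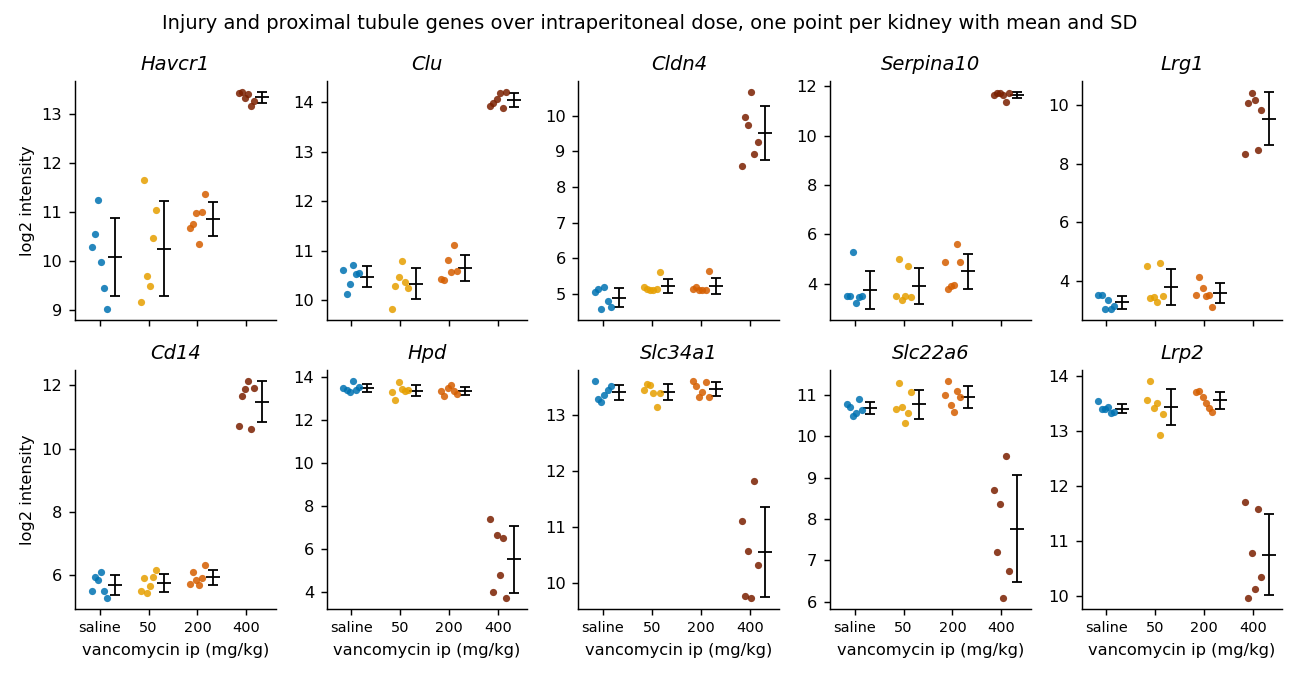
Log2 intensity (vertical axis, own range per panel) of 10 injury and proximal tubule genes in ip saline and at 50, 200 and 400 mg/kg ip vancomycin, 1 point per kidney with mean and SD beside them. The kidneys at 50 and 200 mg/kg overlap the saline kidneys in every panel, and those at 400 mg/kg lie apart, as for Hpd at 5.50 against 13.37 at 50 and 13.36 at 200 mg/kg.

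Of 20 tested circadian genes 5 rose and 9 fell at 400 mg/kg against the lower doses, and 6 did not pass the threshold. Of all genes 39.9% rose and 31% fell. The share of circadian genes that passed was thus near the 70.9% of all genes. Dbp averaged 8.12 ± 0.78 in saline kidneys, 9.80 ± 0.52 at 50 mg/kg, 10.10 ± 0.20 at 200 mg/kg and 8.31 ± 0.64 at 400 mg/kg, and its level at 400 mg/kg fell by 1.65 against the lower doses (SE 0.26, adjusted p = 5.2e-06, limma). Ciart was at 4.03 ± 0.64, 5.89 ± 0.95, 5.59 ± 0.56 and 4.03 ± 0.34 in that order, so that the means of saline and 400 mg/kg kidneys were equal to 2 decimals. Npas2 stood at 4.99 ± 0.70, 3.81 ± 0.31, 3.79 ± 0.19 and 4.59 ± 0.58, and Arntl at 4.99 ± 0.44, 3.96 ± 0.50, 3.66 ± 0.34 and 4.10 ± 0.43. Per3 was at 5.23 ± 0.34, 6.44 ± 0.42, 6.77 ± 0.24 and 6.09 ± 0.48, so that its 400 mg/kg mean stayed above the saline mean and fell by 0.51 against the lower doses (adjusted p = 0.014, limma). Tef went past the saline level, at 9.56 ± 0.29 in saline kidneys, 10.21 ± 0.25 at 50 mg/kg, 10.27 ± 0.21 at 200 mg/kg and 8.93 ± 0.44 at 400 mg/kg. Of the 13 genes 10 passed the threshold between 400 mg/kg and the lower doses, a share near the 70.9% of all genes. For 7 of the 10 the sign was opposite to that of the pooled comparison, and Tef and Bnip3 went past the saline mean. The 13 genes were chosen on the same lower-dose kidneys that stand in this comparison. That choice favours an opposite sign, so neither this count nor the single genes above show a return to saline levels.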

How the data were processed

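Kidney RNA of 48 mice was hybridised to 48 single-colour Affymetrix arrays, and 18 arrays (12 vancomycin ip, 6 saline ip) carry the main comparison. The deposited values are linear intensity, computed by GCRMA according to the submitters' processing notes. The sources used here give neither its version nor which arrays were normalized jointly. Rows 751 to 3250, 5001 to 11750 and 34251 to 36000 took the gene of the row shifted by 64, -47 and -16168, and other rows stayed unnamed. Log2 was taken without an offset. Probe sets above the table median of 3.47 in 6 or more of the 18 arrays were kept (23028, of them 6824 named), and the highest-mean probe set stood for each gene (5394). limma 3.58.1 in R 4.3.3 (lmFit, eBayes with trend) fitted 3 groups, two-sided, with the mean of both doses minus saline as contrast and Benjamini-Hochberg adjustment over all genes tested. The route fit used 36 arrays and the 400 mg/kg fit 24. The script was tested on simulated data.

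Members, gene lists and naming rule were chosen with earlier results of these data known. Named were up to 15 genes per direction past 0.05, a fixed inspection list, the 2 smallest p of each list, the tested circadian genes, and for routes and doses up to 4 genes per direction or the 2 smallest p. No batch is labelled and no mouse number is shared between groups. Nothing in the labels says how litters or cages were spread, so p-values measure the spread between these mice. The number of arrays limits the precision.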

Additional observations from a re-analysis of the deposited data

Results flagged for a closer look

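In 22 of 327 gene and group combinations checked (6.73%), 1 kidney lay far from the other 5 of its group by Dixon's criterion at a gap above 0.625 of the range, where chance gives about 1 in 20. By group these were 7 at ip 50 mg/kg, 5 at ip 200 mg/kg and 10 in ip saline. At 50 mg/kg, mouse 67 had Cdkn1a at 7.08, mouse 68 had Col1a1 at 5.77 and Ddc at 11.66, mouse 69 had Csnk1e at 6.51, mouse 70 had Klf1 at 4.16, mouse 71 had Slc34a1 at 13.13 and mouse 72 had Cldn4 at 5.62. At 200 mg/kg, mouse 87 had Nfil3 at 4.68 and Aqp4 at 8.99, mouse 88 had Avpr1a at 6.13, mouse 89 had Ddit3 at 7.97 and mouse 90 had Cldn4 at 5.65. In saline, mouse 62 had Per3 at 5.89, Nr4a1 at 6.29, Sod1 at 6.86, Clec7a at 5.03 and Pparg at 6.89. Saline mouse 63 had Serpina10 at 5.27, Klf1 at 3.02 (under the background level) and Des at 3.61, and saline mouse 64 had Cxcl10 at 4.99 and Cyc1 at 13.36. The other kidneys had Klf1 close to the background level, at 3.39 to 3.51 in saline and 3.39 to 3.45 at 50 mg/kg.

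The effect of the lower doses differed between ip and iv for 10 of the genes named, by the test of the difference itself. Csrnp1, Ptgs2 and Rasd1 were named because they passed this test, so their place in the count was fixed in advance. The same rule also picks Nr4a1 and Arntl. Ciart, Dbp, Per3, Rtkn, Bnip3 and Arntl were named for their ip effect, which is part of the difference. The ip effect minus the iv effect was 3.20 for Ciart, 1.94 for Dbp, 1.30 for Per3, 0.57 for Rtkn, 0.43 for Bnip3 and -1.12 for Arntl, whose iv means were under the background level. It was 3.86 for Nr4a1, 2.43 for Rasd1, 2.41 for Csrnp1 and 1.22 for Ptgs2, with both ip means of Ptgs2 under the background level.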

How the results depend on the processing

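The pooled count of 13 lay between 9 and 16 under quantile normalization, median centring, either filter on low values, all kept probe sets, the mean of probe sets, trimmed stretches, leaving out the third stretch and both doses as 1 group. It was 8 with all 48 arrays in the fit, 22 with array weights, 35 with the mouse-number block and 51 with that block over all kept probe sets. The ip 50 mg/kg count of 3 became 1 without a filter, 5 with all 48 arrays, 9 with array weights, and 0 over all kept probe sets with or without the block. The ip 200 mg/kg count of 12 became 2 without a filter, 5 with all 48 arrays, 28 with the block and 46 with the block over all kept probe sets. The cause was not tested, beyond the number of probe sets and arrays that each setting changes. Leaving out 1 array gave 2 to 21 for the pooled count, 0 to 9 at 50 mg/kg and 2 to 15 at 200 mg/kg, and 0 between the doses in every setting run. The route count of 22 became 14 with all 48 arrays and 80 over all kept probe sets, and the 400 mg/kg count of 3966 became 15817 there. Higher genes were 61.5% of the pooled calls and 72.7% after median centring, and 56.2% of the 400 mg/kg calls, against 46.2% after centring, 47.1% after quantile normalization and 44.1% without a filter.

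Dbp and Per3 passed under all 29 alternatives each, and no gene past the threshold changed direction under any. Each of the other 11 genes missed the threshold under at least 1. With all 48 arrays in the fit, adjusted p-values (limma) were 1 for Avpr1a and Bnip3, 0.81 for Spata6, 0.35 for Ndrg1, 0.24 for Nr1d2 and 0.071 for Ethe1. Nr1d2 was at 0.72 with the mean of its probe sets, Nr1d2 and Ciart at 0.063 and Ethe1 and Ndrg1 at 0.065 with no filter on low values, and these last 2 genes at 0.079 after median centring. Near 0, direction was not settled: Ighm was at -0.01 after quantile normalization and C1qb at 0.04 without the third stretch, against -0.12. Leaving out 1 array gave -0.05 to 0.07 for Clu, -0.07 to 0.18 for Aqp2, -0.01 to 0.12 for Igfbp1, -0.23 to 0.03 for Kcne1, -0.03 to 0.18 for Gclc, -0.12 to 0.00 for Cd8a and -0.05 to 0.08 for Ighm. No paired analysis was possible because no mouse number is shared between groups, and the block used above is the position in the order of mouse numbers, which no label gives as a pairing.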
